A study of Mus musculus with 2 samples.

Results

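The MHC class II genes were described in mouse bone marrow-derived macrophages (BMDMs), a culture of macrophages differentiated from progenitors of the marrow. The set holds 10 genes chosen by symbol out of 15576 in the table. They are the classical chain genes H2-Aa, H2-Ab1 and H2-Eb1, the H2-DM genes H2-DMa, H2-DMb1 and H2-DMb2, the H2-O genes H2-Oa and H2-Ob, the invariant chain gene Cd74 and the transactivator gene Ciita. All 10 had a value in both libraries and passed the filter of a mean of at least 1 FPKM (fragments per kilobase of gene and 1e6 reads). The DCA library came from wild-type BMDMs given deoxycholic acid, a bile acid formed by bacteria of the intestine, at 100 µM for 24 h, and the NC library from wild-type BMDMs without it. The labels do not make clear whether the cells were collected at the end of the 24 h or a day later. The sources used here do not give the vehicle, the age and sex of the mice or the number of animals. With 1 library per group no difference could be set against the spread between cultures, so no test was run and no p-value is given.

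Class II molecules display peptides from endocytosed proteins to CD4+ T cells. An alpha and a beta chain assemble with the invariant chain, which guides them to the endosome, where proteases cut it down to a short peptide in the groove. H2-DM then exchanges that peptide for others, and H2-O, a relative found mainly in B cells, dampens H2-DM. CIITA is the factor that switches the whole set on: it binds no DNA itself but docks on a platform of RFX, CREB and NF-Y proteins at the X and Y boxes of class II promoters. In macrophages Ciita is induced by interferon gamma, whereas B cells and dendritic cells express it without that signal.

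The letters that this platform reads are shown first, for the 6 members in whose promoter windows they were found. RefSeq promoter windows on GRCm38.p6, from 250 bases before to 50 after a gene's start, were at hand for 7 members in 8 windows, H2-DMa having 2. H2-Ab1, Cd74 and Ciita had none. The stretches below run 5′ to 3′ along the gene's strand. Capitals mark AAC, the core of the X box, and TGATTGG, which holds the reversed CCAAT letters of the Y box.
H2-Aa (chr17:34287857-34287917, minus strand): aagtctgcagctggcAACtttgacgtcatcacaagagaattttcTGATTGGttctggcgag
H2-Eb1 (chr17:34305763-34305822, plus strand): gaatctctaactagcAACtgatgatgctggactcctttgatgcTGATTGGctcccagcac
H2-DMb1 (chr17:34153084-34153144, plus strand): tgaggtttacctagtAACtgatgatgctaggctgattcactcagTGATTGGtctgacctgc
H2-DMb2 (chr17:34145113-34145173, plus strand): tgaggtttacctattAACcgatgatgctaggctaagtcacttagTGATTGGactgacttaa
H2-Oa (chr17:34092290-34092350, plus strand): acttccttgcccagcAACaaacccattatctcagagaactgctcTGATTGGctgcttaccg
H2-Ob (chr17:34238805-34238862, plus strand): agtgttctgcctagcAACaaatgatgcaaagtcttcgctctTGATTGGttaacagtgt
H2-Aa also carries the cAMP response element TGACGTCA, which starts shortly after AAC and so overlaps the place of the fuller X box form given below. The motif TGATTGG, searched on both strands, was in 1 window each of 6 of the 7 members and in 7.82% of all 32851 windows. AAC followed after 20 to 32 letters by ATTGG, on either strand, was in the same number of member genes and in 7.09% of all windows. In the 6 stretches the gap between these letters was 28 letters in H2-Aa, H2-DMb1, H2-DMb2 and H2-Oa, 27 in H2-Eb1 and 25 in H2-Ob. The fuller X box form AACNGATG, on both strands, was in H2-Eb1, H2-DMb1 and H2-DMb2 and in 2.32% of all windows, and TGACGTCA was in 1.79%. H2-DMa had neither TGATTGG nor the spaced pair in its windows, which says only that these letters are not in them. The motifs were chosen with the member sequences in view, TGATTGG overlaps ATTGG of the spaced pair, and a match is a description of letters, not of binding.

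The libraries held 56.6 (DCA) and 59.2 (NC) times 1e6 reads behind the FPKM values. The member genes rested on between 343 and 39818 rebuilt reads in DCA and between 353 and 38176 in NC. Ratios below are DCA over NC for reads scaled to these totals, with exact Clopper-Pearson 95% intervals. The intervals cover counting error only, and PCR copies make the true error larger. Levels are compared between genes only as reads per kilobase of merged exons and 1e6 reads (called level), because the FPKM of the table rests on the summed length of all transcripts of a gene. Merged exons count every annotated exon, used in these cells or not, so levels between genes also depend on the annotation.

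Most of the set stood slightly higher in DCA. On FPKM + 1, 9 of 10 members were higher in DCA, against 53.5% of the 9656 genes tested. At a limit of 1.1-fold, 3 of 10 were higher, against 8.99% of all genes tested, and 0 of 10 lower, against 4.79%. At a limit of 5%, 7 of 10 were higher, against 22.6%, and 0 of 10 lower, against 16.2%. At 1.2-fold no member passed in either direction, where 2.11% of all genes tested were higher and 0.715% lower. The counting interval of the ratio lay above 1 for 8 of 10 members and for 25.7% of all tested genes with rebuilt reads. It lay below 1 for 0 members, against 20% of those genes, so an interval that excludes 1 was common in this pair of libraries. The median difference of the members in log2(FPKM + 1) was 0.11, against 0.0067 over all genes tested. Summed over the 10 genes, reads numbered 89298 for DCA and 84973 for NC, at a ratio of 1.0998 (1.09 to 1.11), to which Cd74 alone gave 39818 and 38176 reads.

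**Figure D1:**
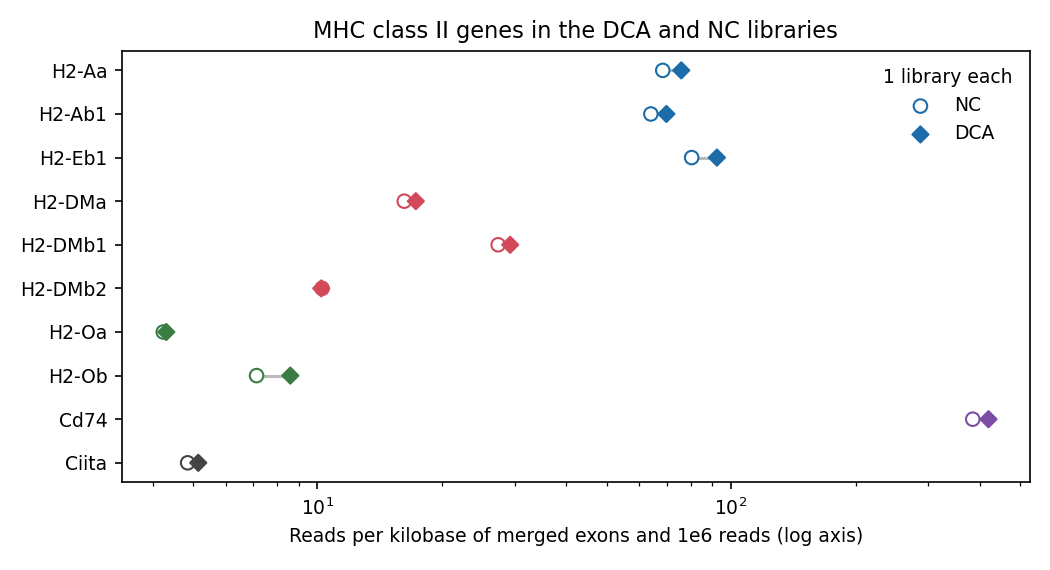
Level of each class II gene in reads per kilobase of merged exons and 1e6 reads on a log axis, open circles for NC and filled diamonds for DCA, 1 library each. The order of the genes was the same in both libraries, from Cd74 at 419 in DCA to H2-Oa at 4.31.

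The classical chains form the peptide-presenting molecules themselves, I-A from H2-Aa and H2-Ab1 and the beta chain of I-E from H2-Eb1. The alpha chain gene of I-E, looked up as H2-Ea and H2-Ea-ps, had no value here. H2-Eb1 alone therefore does not show that an I-E molecule is made. H2-Eb1 (ENSMUSG00000060586, GRCm38 chromosome 17, 34305867 to 34316674, plus strand) measured 32.7 FPKM in DCA against 28.4 in NC on 10165 and 9243 reads, at a ratio of 1.151 (1.12 to 1.18). H2-Aa (ENSMUSG00000036594, 34282744 to 34287823, minus strand) measured 49.3 and 44.5 FPKM on 16282 and 15373 reads, at a ratio of 1.11 (1.08 to 1.133). H2-Ab1 (ENSMUSG00000073421, 34257689 to 34269419, plus strand) measured 27.5 and 25.2 FPKM on 10136 and 9728 reads, at a ratio of 1.09 (1.06 to 1.12). All 3 were higher in DCA, by 9.05% to 15.1%. H2-Aa and H2-Eb1 passed 1.1-fold and H2-Ab1 did not. The ratio of H2-Eb1 was 1.0555 (1.014 to 1.098) times that of H2-Ab1 and 1.04 (1.002 to 1.08) times that of H2-Aa, with exact conditional 95% intervals of counting error, so both differences were larger than the counting error. Summed, the classical chains had 36583 and 34344 reads, a ratio of 1.11 (1.098 to 1.131).

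By level, the classical chains lay close together. Their order rests on the length used: merged exons span 3798 bases in H2-Aa, 2568 in H2-Ab1 and 1944 in H2-Eb1. By reads and by FPKM H2-Aa was the highest of them, and by level H2-Eb1 was. H2-Eb1 stood at 92.4 in DCA and 80.3 in NC, H2-Aa at 75.8 and 68.4, and H2-Ab1 at 69.8 and 64.0. The alpha chain H2-Aa was 1.09 times the level of its partner H2-Ab1 in DCA and 1.07 times in NC, and the change in this balance, 1.02-fold (0.981 to 1.053), was not detectable at this depth. H2-Eb1 was 1.22 times H2-Aa in DCA and 1.17 times in NC. H2-Eb2, a further beta chain gene next to H2-Eb1 that is not in the set, was near the filter at 1.09 and 0.911 FPKM, from 210 and 183 reads, and its ratio of 1.201 (0.980 to 1.47) includes equality.

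Cd74 (ENSMUSG00000024610, chromosome 18), the invariant chain, was the most abundant member, with 132.3 FPKM in DCA against 121.2 in NC. The ratio of 1.09 (1.08 to 1.11) had the narrowest interval of the set, and was 0.985 (0.959 to 1.01) times that of H2-Aa and 1.001 (0.970 to 1.03) times that of H2-Ab1, so no difference from either was detectable at this depth. By level Cd74 was at 419 in DCA and 384 in NC, which is 5.53 and 5.62 times H2-Aa. Against H2-Ab1 it was 6.01 times in DCA and 6.002 times in NC. Against H2-Eb1 it was 4.54 times in DCA and 4.78 times in NC, a change of 0.948-fold (0.919 to 0.979) that was larger than the counting error.

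The H2-DM genes encode the peptide editor, with H2-DMa as its alpha chain and H2-DMb1 and H2-DMb2 as alternative beta chains. H2-DMa (ENSMUSG00000037649, chromosome 17, 34119541 to 34139101, plus strand) measured 7.81 FPKM in DCA against 7.32 in NC on 3372 and 3309 reads, at a ratio of 1.067 (1.02 to 1.12). H2-DMb1 (ENSMUSG00000079547, 34153072 to 34160230, plus strand) measured 18.8 and 17.6 FPKM on 2780 and 2721 reads, at a ratio of 1.069 (1.01 to 1.128). H2-DMb2 (ENSMUSG00000037548, 34143307 to 34151555, plus strand) measured 4.13 and 4.15 FPKM on 1009 and 1061 reads, at a ratio of 0.995 (0.912 to 1.09), and was the single member lower in DCA. None of the 3 passed 1.1-fold, and a difference in H2-DMb2 was not detectable at this depth. Their sum gave 7161 and 7091 reads, a ratio of 1.06 (1.02 to 1.09), whose interval ended below the start of that of the classical chains at 1.098.

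The beta chain genes are close copies, which bears on how their reads divide. Of the distinct 50-letter stretches in the annotated transcripts of H2-DMb1, 22.7% also occurred in those of H2-DMb2, and 21.2% the other way round. With any other gene, the share was 22.7% for H2-DMb1 and 24.8% for H2-DMb2. Some stretches of H2-DMb2 thus occur in a further gene, so summing the pair does not remove all sharing. For H2-Ab1, H2-Eb1, H2-DMa, H2-Oa, H2-Ob, Cd74 and Ciita no such stretch was shared with another gene's annotated transcripts, and for H2-Aa 0.488% were. The values of H2-DMb1 and H2-DMb2 taken singly are therefore uncertain. Their summed reads were 3789 and 3782, at a ratio of 1.049 (1.002 to 1.097). By level H2-DMb1 exceeded H2-DMb2 by 2.86 times in DCA and 2.67 times in NC, and exceeded H2-DMa by 1.69 times in both. The level of H2-Aa was 4.38 times that of H2-DMa in DCA and 4.22 times in NC.

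H2-O, the H2-DM antagonist, had its chains apart. H2-Ob (ENSMUSG00000041538, 34238903 to 34254414, plus strand), the beta chain, measured 4.13 FPKM in DCA against 3.43 in NC on 2616 and 2269 reads, the highest ratio of the set at 1.21 (1.14 to 1.28). H2-Oa (ENSMUSG00000024334, 34092340 to 34095234, plus strand), the alpha chain, measured 1.66 and 1.63 FPKM on 343 and 353 reads, at a ratio of 1.02 (0.874 to 1.18). The ratio of H2-Ob was 1.19 (1.009 to 1.395) times that of H2-Oa, an interval of counting error that lies just above equality. The interval of H2-Ob, which starts at 1.14, did not reach those of the other members except H2-Eb1 and H2-Oa. By level H2-Ob was at 8.60 in DCA and 7.12 in NC and H2-Oa at 4.31 and 4.24, so H2-Ob was 1.99 times H2-Oa in DCA and 1.68 times in NC. Of the merged exons of H2-Oa, 22.8% also lie in exons of the antisense gene BC051537, which has no value here. The sources used here do not give the strand setting of the counting, so reads of H2-Oa and that gene cannot be told apart.

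Ciita (ENSMUSG00000022504, chromosome 16, 10480059 to 10528418, plus strand) measured 1.76 FPKM in DCA against 1.66 in NC on 2777 and 2740 reads, at a ratio of 1.06 (1.01 to 1.12). It did not pass 1.1-fold, and 71.6% of the genes tested had a lower difference. The ratio of Ciita lay between those of H2-Oa and H2-DMa, and its interval overlapped those of all members but H2-Eb1, which starts at 1.1189 where that of Ciita ends at 1.1186, and H2-Ob. By level Ciita stood at 5.15 and 4.85, and H2-Aa was 14.7 times as high in DCA and 14.1 times in NC. The gene has alternative promoters used in different cell types, which a value per gene cannot separate. Of its merged exons, 3.45% overlap exons of Dexi on the opposite strand, a gene with 753 and 619 reads and a ratio of 1.27 (1.14 to 1.42).

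**Figure D2:**
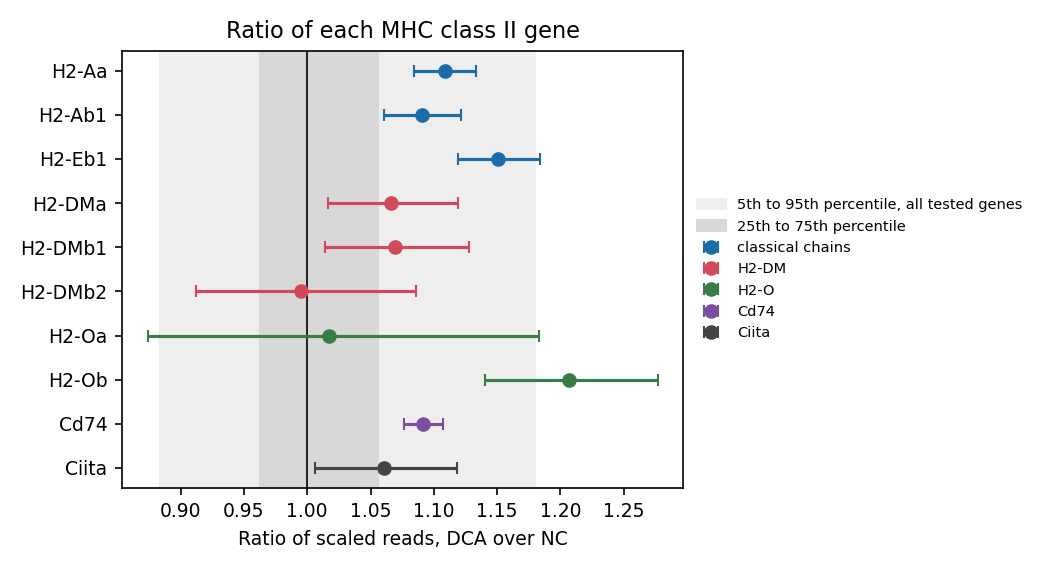
Ratio of scaled reads, DCA over NC, for each class II gene, with exact 95% intervals of counting error as bars. Grey bands give the 5th to 95th percentile (0.884 to 1.18) and the 25th to 75th percentile (0.963 to 1.06) of all tested genes, and H2-Ob alone lies beyond the wider band.

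Set among all genes, the members lay in the upper part of a narrow spread. The difference of H2-Ob was above that of 96.6% of the genes tested, H2-Eb1 above 95.7% and H2-Aa above 91.9%. Cd74 and H2-Ab1 were above 89.5% and 88.8%, H2-DMb1 and H2-DMa above 83.1% and 80.6%. H2-Oa and H2-DMb2 stood near the middle, above 54.2% and 43.7%.

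**Figure D3:**
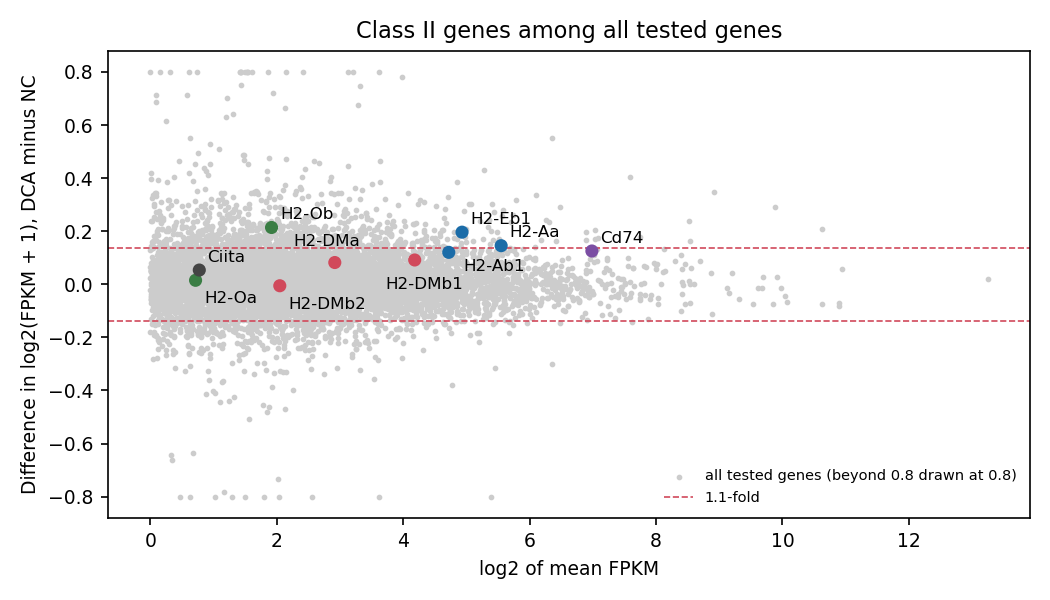
Difference in log2(FPKM + 1), DCA minus NC, against the log2 of the mean FPKM for the 9656 genes tested (grey, with values beyond 0.8 drawn at 0.8) and the class II genes (coloured and named). Dashed lines mark 1.1-fold, which H2-Ob, H2-Eb1 and H2-Aa pass on the higher side.

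Of the members, 8 lie in 1 interval of chromosome 17, from the start of H2-Oa to the end of H2-Eb1 (34092340 to 34316674, 224 kb). The table holds 5 other genes there. Psmb9 and Psmb8, subunits of the immunoproteasome, had ratios of 1.19 (1.12 to 1.26) and 1.11 (1.07 to 1.15). Tap1 and Tap2, the peptide transporter for MHC class I, were at 1.064 (1.03 to 1.101) and 1.09 (1.055 to 1.133). Brd2, a bromodomain reader of acetylated chromatin, was at 1.02 (1.002 to 1.04). The lowest ratios were those of H2-DMb2, H2-Oa and Brd2 at its H2-Oa end, and H2-Ob, Psmb9 and H2-Eb1 were the highest. Exons of Brd2 overlap 10.4% of the merged exons of H2-DMa on the opposite strand.

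**Figure D4:**
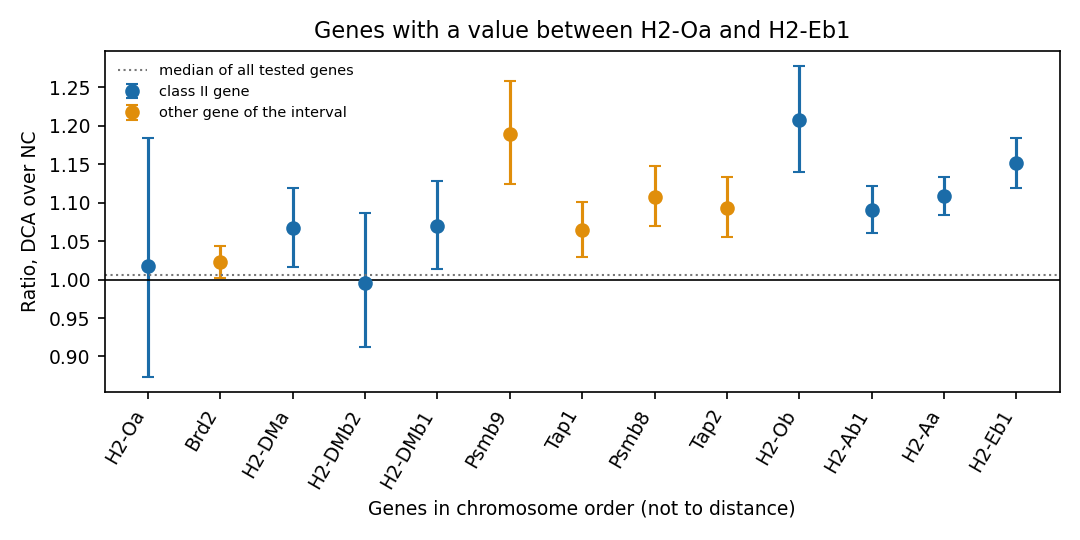
Ratio, DCA over NC, with exact 95% counting intervals for the 13 genes that have a value between H2-Oa and H2-Eb1, in chromosome order and not to distance. Class II genes are blue and the 5 other genes orange, and 12 of the 13 points lie above 1.

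The factors that hold CIITA on class II promoters were close to equal. Of 7 tested genes for RFX, NF-Y and CREB proteins, 0 passed 1.1-fold in either direction. Of all genes tested, 8.99% were higher by as much and 4.79% lower. The median difference of the 7 in log2(FPKM + 1) was -0.011. Rfxank, a subunit of RFX, had a ratio of 1.052 (0.985 to 1.12), Creb1 1.04 (1.01 to 1.08) and Rfx5 1.03 (0.967 to 1.09). Rfxap, also an RFX subunit, had the lowest ratio at 0.924 (0.846 to 1.01). Only the interval of Creb1, among these 4, excluded equality.

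Genes that lead from interferon gamma to Ciita stood mostly higher, by small amounts. Of 10 tested, 9 were higher in DCA, against 53.5% of all genes tested. On FPKM + 1, 0 passed 1.1-fold in either direction, against 8.99% higher and 4.79% lower. The median difference of the list was 0.060. Irf1, a transcription factor that acts on a Ciita promoter, measured 6.48 FPKM in DCA against 5.87 in NC, at a ratio of 1.105 (1.06 to 1.15). Its rebuilt reads were not whole numbers, so its interval is approximate. Usf1, which acts with it there, was at 1.097 (1.04 to 1.16), and Irf8, a myeloid interferon regulatory factor, at 1.08 (1.06 to 1.105). The receptor chain Ifngr2 was the lowest at 0.963 (0.935 to 0.993).

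The enzymes that prepare class II molecules and peptides were mostly slightly lower. Of 9 tested genes of loading and turnover, 8 were lower in DCA, where 4486 of all 9656 genes tested were. By 1.1-fold or more 1 of them was lower, against 4.79% of all genes tested. The median difference was -0.052. Ctsl, a cathepsin known to cut the invariant chain in thymic epithelium, had a ratio of 0.907 (0.893 to 0.921), and Marchf8, a ubiquitin ligase, 0.944 (0.910 to 0.980). Ctsb was at 0.949 (0.946 to 0.952), Ctsd at 0.953 (0.949 to 0.957) and Lgmn at 0.965 (0.955 to 0.975). Ctss, the main protease of the invariant chain in B cells and dendritic cells, was at 0.991 (0.983 to 0.999), and Sppl2a, a protease of the invariant chain remnant, at 0.986 (0.964 to 1.009). Ifi30, the thiol reductase GILT, was at 0.994 (0.974 to 1.01), with an approximate interval because its rebuilt reads were not whole. The intervals of Sppl2a and Ifi30 include equality. Marchf1, the ligase that removes class II molecules from the surface of B cells and dendritic cells, was the only one higher, at 1.12 (1.06 to 1.19).

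Surface molecules of T cell co-stimulation and inhibition showed little difference. Of 7 tested, 5 were higher in DCA, against 53.5% of all genes tested, at a median difference of 0.037. At 1.1-fold, 1 of the 7 was higher, against 8.99% of all genes tested. The gene past this limit was Cd274, the checkpoint ligand PD-L1. It had 9.92 FPKM in DCA against 8.75 in NC and a ratio of 1.133 (1.06 to 1.21). Cd86 was at 1.047 (0.973 to 1.1262), Cd80 at 1.03 (0.954 to 1.12) and Cd40 at 1.002 (0.889 to 1.1295), all with intervals that include equality.

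Most B cell markers were higher in DCA, and dendritic cell markers were mixed. The libraries carried the macrophage markers strongly, with Lyz2 at 9803 FPKM in DCA and 9669 in NC and Cd68 at 389.2 and 388.6. They also held RNA of B cells: all 14 B cell markers had a value above 0, with a summed 282.9 FPKM in DCA and 237.7 in NC. Of the 12 tested, 11 were higher in DCA and 9 by 1.1-fold or more, with a median ratio of 1.18. Over all genes tested, 53.5% were higher and 8.99% by 1.1-fold or more. Blk had a ratio of 1.42 (1.33 to 1.51), Cd79a 1.27 (1.22 to 1.32), Cd79b 1.24 (1.196 to 1.28), Ms4a1, which encodes CD20, 1.19 (1.15 to 1.23) and Blnk the lowest, 0.948 (0.914 to 0.983). Below the filter, Igll1 was lower at 0.488 (0.317 to 0.739) and Vpreb1 higher at 2.01 (1.21 to 3.401), both parts of the surrogate light chain of B cell precursors. Of the B-cell-biased H2-O genes, H2-Ob at 1.21 lay among these markers. H2-Oa, at 1.02 (0.874 to 1.18), was below every tested marker but Blnk. All members lay within the range of the tested markers, which was wide, from 0.948 to 1.42. The part of B cells in the class II differences was not tested. In bulk RNA, more cells of a type and more RNA per cell cannot be told apart.

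Dendritic cell markers were also all above 0, with a summed 211.6 FPKM in DCA and 185.3 in NC. By level the sums were 280.3 and 246.8, of which Ly6d alone gave 98.4 and 80.3, at a ratio of 1.22 (1.17 to 1.28). Of the 8 tested, 7 were higher, against 53.5% of all genes tested, and 4 by 1.1-fold or more, against 8.99%. The median ratio of the 8 was 1.14. Ccr7, the receptor of migrating dendritic cells, was at 1.68 (1.54 to 1.83), Clec10a, a lectin, at 1.59 (1.47 to 1.71) and Siglech, of plasmacytoid dendritic cells, at 1.245 (1.202 to 1.29). Itgax, the CD11c gene, was at 1.01 (0.952 to 1.07), Flt3 at 1.048 (0.997 to 1.102) and Cd209a the lowest tested, at 0.941 (0.872 to 1.02). Of the 4 markers below the filter, Batf3 was at 0.503 (0.333 to 0.7503), Xcr1 at 0.669 (0.378 to 1.16), Zbtb46 at 0.935 (0.813 to 1.08) and Clec9a at 1.16 (0.815 to 1.67), and only the interval of Batf3 excludes equality. Genes of this list need not be particular to dendritic cells, so its counts and sums do not measure dendritic cell RNA alone. The part of dendritic cells in the class II differences was not tested. The median of this list rests on the filter, since without one it was 0.026 in log2(FPKM + 1), against 0.17 with it.

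Markers of cells with little or no class II, such as neutrophils, also differed, as did those of macrophages. All 11 neutrophil markers were higher in DCA, 10 by 1.1-fold or more, with a summed 4120 FPKM in DCA and 3476 in NC. Mast cell, basophil and eosinophil markers were higher in 7 of 7 tested, 4 of them by 1.1-fold or more. They summed to 150.8 and 114.0 FPKM, the highest ratio being that of the eosinophil peroxidase gene Epx at 1.90 (1.65 to 2.19). For both lists, the shares over all genes tested were 53.5% higher and 8.99% by 1.1-fold or more. T and NK cell markers summed to 2.57 and 1.51 FPKM, with Cd3d and Cd3g at 0 in NC and Gzma at 0 in DCA, and only Cd4, which myeloid cells can also express, passed the filter. Of the 12 macrophage markers 9 were lower, where 4486 of all 9656 genes tested were, at a median ratio of 0.939. By 1.1-fold or more 3 of them were lower, against 4.79% of all genes tested, and none higher, against 8.99%. The summed FPKM of the macrophage markers was slightly higher in DCA, at 10839 against 10748 in NC. Most of this sum was Lyz2, at a ratio of 1.014 (1.011 to 1.017). Trem2 was at 0.9003 (0.882 to 0.919) and C1qa at 0.896 (0.853 to 0.942).

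**Figure D5:**
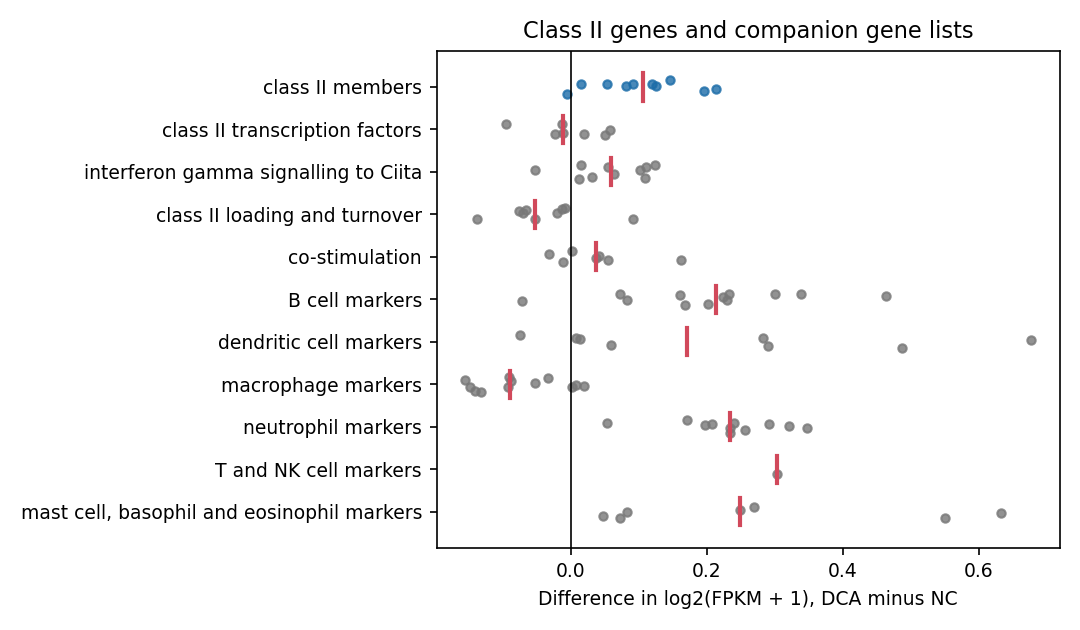
Difference in log2(FPKM + 1), DCA minus NC, for the tested genes of each list (points, with vertical scatter for legibility only) and its median (red bar). The class II genes (blue, median 0.11) lie between the B cell (0.21) and neutrophil (0.23) markers on the higher side and the macrophage markers (-0.089) on the lower.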

How the data were processed

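RNA was sequenced from 2 libraries of mouse BMDMs, 1 per group, placed by the treatment label. The authors deposited FPKM per gene. The submitters' processing notes name GRCm38 and the tools HTSeq 0.6.0, DESeq2 3.0, STAR 2.5.0c, bedtools 2.17.0 and Picard 1.126, without roles or order. The sources used here do not give the gene length, strand setting or filters.

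Whole reads were rebuilt from FPKM with the summed transcript length of GENCODE vM21 as gene length. For genes with fewer than 5000 reads, 96.4% of 11791 came out whole in both libraries within 0.05 of a read, as did all 10 members. Ratios between the libraries do not depend on this length, whereas FPKM levels do. Differences are in log2(FPKM + 1), which understates the ratio of low genes, over genes with a mean of at least 1 FPKM. With 1 library per group no test was run.

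The members and lists were chosen with earlier results of these data known. The text names all members, up to 3 tested genes at each end of a list, and every gene between the outermost members that has a value. H2-Eb2, BC051537, Dexi, Ms4a1, Flt3, Ly6d, Sppl2a, Ctsd, Lgmn and the genes below the filter were chosen with their values in view. Recovery of totals and the intervals were tested on simulated data. Python 3.11.15, scipy and matplotlib were used.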

Additional observations from a re-analysis of the deposited data

How the results depend on the processing

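Other pseudocounts, filters and scalings were tried, and leaving out genes with overlapping exons. Levels per kilobase of merged exons and rebuilt reads without a pseudocount were added after seeing the data. The direction of all 10 members was the same under every setting that gave them a value. Only rescaling each library or setting the median of all tested genes to 0 could have changed a direction. The other settings keep the sign of a gene's difference by construction, and filters leave its value unchanged. The number of members at least 1.1-fold higher, 3 as reported, was 1 with pseudocount 5 (H2-Eb1), where 2.9% of all genes passed. It was 7 at a limit of 5% and 0 at 1.2-fold, by construction of those limits. It was 2 or 3 in the other settings, and no member was 1.1-fold lower in any. The median of the members ranged from 0.090 to 0.13. Of 82 values of single members under alternatives, 81 moved by less than their counting interval, and H2-Ob fell to 0.12 with pseudocount 5. Rescaling each library to 1e6 came before the filter and the pseudocount, so 11706 genes passed the filter in place of 9656. In that larger set the share of higher among all 1.1-fold differences was 54.0%, against 65.2% as reported. The change in this share is therefore not one of scaling alone. H2-Aa fell below 1.1-fold after rescaling, at 0.13 in log2. Of the lists, the dendritic cell median was 0.059 with a mean FPKM of at least 5 and 0.054 after rescaling, with its larger set of genes. That of mast cell, basophil and eosinophil markers, 0.25 as reported, was 0.33 with pseudocount 0.1, 0.11 with pseudocount 5, 0.083 with a mean FPKM of at least 5 and 0.34 on rebuilt reads without a pseudocount. No replicate could be left out, and no paired analysis was possible because each group has 1 library. The depth limits H2-Oa most, whose interval spans 15.2% of its ratio on either side, while that of Cd74 spans 1.41%.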
